A study of Mus musculus with 18 samples.

Results

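The genes described here are 10 members of the Notch pathway: the receptors Notch1, Notch2 and Notch3, the ligands Dll1, Dll4, Jag1 and Jag2, and the target genes Hes1, Hey1 and Heyl. They were chosen by name from the series-wide count table, which holds 27179 gene identifiers, and all 10 passed the filter on low counts that left 16466 genes for testing. RNA sequencing libraries came from basal cells, luminal progenitors (LP) and mature luminal cells (ML), which the sample descriptions also call P5, P7 and P8, sorted from the mammary epithelium of female mice aged 14 weeks. Each population was taken from 3 KO mice and 3 WT mice, giving 18 libraries in 6 groups. The KO mice carry Brca2(delta/delta) and Trp53(delta/+) together with the transgene MMTV-cre(T/+), in which Cre is driven by the mouse mammary tumour virus promoter, and the genotype gives both copies of Brca2 and a single copy of Trp53 as deleted. The other mice are given as wildtype, but the strain entry MMTVcre Brca2(fl/fl) Trp53(fl/+) is the same for every library, so the labels do not settle which alleles the WT mice carried. The effects of Brca2 and Trp53 deletion cannot be told apart in this design.

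Notch receptors are transmembrane proteins that are activated by ligands of the Delta-like and Jagged families on a neighbouring cell. Ligand pulling exposes the receptor to a sheddase and then to gamma-secretase, and the released intracellular domain joins the DNA-binding protein RBPJ and Mastermind-like coactivators in the nucleus. Hes and Hey genes, which encode basic helix-loop-helix repressors, are the classical targets. In the mammary gland the pathway is known for its part in luminal commitment and for contact between the basal layer, which lies against the stroma, and the luminal cells inside it.

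Levels are given as CPM, read counts scaled to a common library size with TMM factors, and levels of different genes are compared only as RPKM, which is CPM per kilobase of the deposited gene length. The libraries held 5.97 M to 39.19 M counts in all, and the LP WT libraries (9.29 M to 16.17 M) were all shallower than the LP KO libraries (22.42 M to 32.72 M). Trp53 levels were reduced by the KO genotype in all 3 populations, with log2 fold changes of -1.72 (basal), -3.60 (LP) and -1.57 (ML) (edgeR quasi-likelihood test, Benjamini-Hochberg adjusted p = 0.0034, 5.3e-06 and 0.0023). These are levels 3.29-fold, 12.1-fold and 2.98-fold lower, more than the 2-fold of a level that followed the single deleted copy the genotype gives. Brca2 counts over the whole gene did not pass the test in any population, and such counts do not test a deletion of part of the gene. In WT libraries the 10 basal, 10 LP and 10 ML marker genes each had their highest summed level in the population they mark. These are bulk samples, so fewer cells of a type and less RNA per cell cannot be told apart. The library kit does not mark strand, so reads of a member and of any antisense gene at its locus cannot be separated.

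Promoter sequences are shown for 3 members because these genes have the clearest contrasting patterns below. They are Dll1, a Delta-like ligand found mainly in basal cells, Notch3, a receptor found mainly in luminal cells, and Notch1. Notch1 is a receptor with its highest WT level in LP, as is Notch2. RefSeq start sites on GRCm38.p6 were matched for 7 of the 10 members, with 8 windows of 250 bases upstream, all but Hes1, Hey1 and Heyl. The windows printed are chr17:15376933-15377182 for Dll1, chr17:32166891-32167140 for Notch3 and chr2:26503823-26504072 for Notch1, all on the minus strand and written 5′ to 3′ along the gene. Capitals mark matches on either strand to the N box CACNAG, a sequence bound by Hes proteins, added to the search after the data were seen.
Dll1: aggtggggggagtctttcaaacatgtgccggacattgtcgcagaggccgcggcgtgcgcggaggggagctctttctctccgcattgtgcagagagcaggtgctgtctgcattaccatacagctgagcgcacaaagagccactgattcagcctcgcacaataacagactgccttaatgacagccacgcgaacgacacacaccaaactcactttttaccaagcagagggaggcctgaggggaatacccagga
Notch3: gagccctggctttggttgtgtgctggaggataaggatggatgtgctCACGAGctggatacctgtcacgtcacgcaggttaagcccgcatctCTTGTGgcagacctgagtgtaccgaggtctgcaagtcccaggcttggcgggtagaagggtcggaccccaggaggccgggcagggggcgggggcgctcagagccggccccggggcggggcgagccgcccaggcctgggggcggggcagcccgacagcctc
Notch1: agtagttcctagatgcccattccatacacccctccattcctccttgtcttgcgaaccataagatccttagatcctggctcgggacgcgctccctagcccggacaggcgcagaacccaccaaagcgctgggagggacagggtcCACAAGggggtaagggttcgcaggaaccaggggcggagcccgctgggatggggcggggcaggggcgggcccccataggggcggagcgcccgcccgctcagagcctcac

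The N box was found in the Notch3 window at -204 and -159 and in the Notch1 window at -108, counted as the first base from the start site, and it was not in the Dll1 window. It was also present at -75 in Dll4 and at -247 in Notch2. Across 32851 promoter windows of the same length, 36.7% held it. The RBPJ core TGGGAA was in 0 of the 8 member windows and in 21.6% of all windows, and the E box CACGTG was in 0 of the 8 and in 6.0% of all. Both strands were searched, and the E box and N box share the letters CAC. These are matches of letters within 250 bases and are given as a description.

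In WT mice Dll1, Jag1 and Jag2 were highest in basal cells, and the 3 receptors and 3 target genes were highest in luminal populations. Set against basal cells, LP had 5 of the 10 members raised and 3 reduced, where 37.1% of all tested genes passed (17.3% raised and 19.8% reduced). Set against basal cells, ML had 3 raised and 5 reduced, where 54.5% of all genes passed (25.7% and 28.9%). LP set against ML had 6 raised and 1 reduced, where 33.7% of all genes passed (17.6% and 16.1%). Dll1, Jag1 and Jag2 were the 3 that fell from basal cells to LP.

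Notch3 had the largest receptor difference. Its level in WT basal cells was 9.30, 8.18 and 10.2 CPM in mice 1, 2 and 3. WT LP had 238, 273 and 209 CPM, and WT ML had 169, 265 and 315 CPM. Every luminal library was thus above every basal library, by a log2 fold change of 4.71 (SE 0.34) in LP and 4.77 (SE 0.34) in ML, with adjusted p = 1.1e-09 and 5.7e-10 by edgeR. LP and ML did not separate for this receptor (log2 difference -0.06, 95% interval -0.65 to 0.54).

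Notch1, the founding receptor of the family, was highest in LP. WT LP libraries held 230.0, 556 and 535 CPM, against 98.8, 128 and 116 in basal cells and 121, 109 and 112 in ML. The lowest LP library, from mouse 1, still exceeded all basal and ML libraries. Notch1 was higher in LP than in basal cells by 1.95 (SE 0.31, adjusted p = 5.1e-05) and than in ML by 1.95 (SE 0.31, adjusted p = 8.2e-05), while basal cells and ML differed by -0.01 with an interval of -0.64 to 0.63. Notch2, a receptor close to Notch1 in structure, followed a stepped order with means of 182 ± 39.1 CPM in LP, 114 ± 3.47 in basal cells and 58.3 ± 12.5 in ML (SD, n = 3). Its steps from ML to basal cells (-0.97 for ML against basal cells, adjusted p = 0.0056) and from ML to LP (1.65, adjusted p = 0.00014) passed the test. The step from basal cells to LP was 0.67 with adjusted p = 0.057, and it passed with the mouse as a block (adjusted p = 0.021).

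Dll1, a Delta-like ligand, had its highest levels in basal cells. WT basal libraries held 801, 727 and 652 CPM, WT LP 6.54, 9.23 and 5.52, and WT ML 2.22, 0.417 and 0.428. No library of one population overlapped another. Against basal cells the log2 fold change was -6.69 (SE 0.40) in LP and -9.89 (SE 0.49) in ML, and LP stood above ML by 3.20 (adjusted p = 3.1e-05). The ML value rests on 14, 5 and 10 counts in the 3 libraries, and without mouse 1 of ML WT the differences became -10.73 for ML against basal cells and 4.03 for LP against ML. Per kilobase Dll1 was also the most abundant member in WT basal cells, at 212 ± 21.8 RPKM, before Jag1 at 121 ± 87.5 and Jag2 at 47.6 ± 21.2, and the SD ranges of Dll1 and Jag1 overlapped.

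The Jagged ligands shared the basal peak but not the luminal order. Jag2, which encodes a Jagged ligand, held 102, 203 and 274 CPM in WT basal cells, 1.36, 1.33 and 2.39 in LP and 2.53, 1.00 and 3.68 in ML. It was lower than in basal cells by a log2 fold change of -6.75 in LP and -6.25 in ML (-6.91 without ML WT mouse 3), and LP and ML overlapped. Jag1 held 1220.5, 351 and 429.9 CPM in basal cells, with mouse 1 far above the other mice, 14.6, 14.8 and 15.7 in LP, and 64.3, 100.3 and 81.9 in ML. Its 3 populations did not overlap, and ML exceeded LP (log2 fold change -2.45 for LP against ML, adjusted p = 7.3e-05). Against basal cells Jag1 was lower by a log2 fold change of -5.47 in LP and -3.02 in ML, which became -4.70 and -2.25 without basal WT mouse 1. In ML it was the most abundant of the 4 ligands per kilobase, at 14.96 ± 3.27 RPKM, followed by Dll4 at 0.711 ± 0.248.

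Dll4, a Delta-like ligand best known from endothelium, was near the bottom of the measured range. WT libraries held 1.46, 0.538 and 0.471 CPM in basal cells, 0.740, 2.00 and 2.08 in LP and 2.69, 1.501 and 3.17 in ML. ML was above basal cells by 1.57 (SE 0.54, adjusted p = 0.019), and this call was lost without ML WT mouse 3 (adjusted p = 0.14), without basal WT mouse 2 (0.11) or mouse 3 (0.056), and in libraries thinned to equal depth (0.066). It became 2.26 without basal WT mouse 1. The summed level of 10 endothelial markers was 34.9 to 43.8 CPM in WT basal cells, 29.7 to 43.0 in WT LP and 169 to 248 in WT ML. None of the 10 was at 0 counts in any group. Against basal cells, 2 of the 10 were higher in WT ML (Vwf, which averaged 199 CPM, and Egfl7, at 7.496 CPM) and 5 were lower (Cdh5, Kdr, Tek, Emcn and Esam, with Cdh5 at 0.596 CPM and Emcn at 0.133 CPM). Their part in the Dll4 result was not tested.

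The 3 target genes were all highest in LP. Hes1 was the most abundant member per kilobase in both WT luminal populations, at 297 ± 112 RPKM in LP and 129 ± 11.9 in ML, against 36.3 ± 12.6 in basal cells. Its CPM values were 305, 374 and 614 in WT LP, 189, 169.8 and 204 in ML and 49.6, 36.2 and 72.3 in basal cells, with no overlap between populations. All 3 steps passed the test (LP against basal cells 3.04, ML against basal cells 1.84, LP against ML 1.20, the last with adjusted p = 0.0032).

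Hey1, which encodes a repressor of the Hey family, had the steepest drop from LP to ML. It held 29.9, 126 and 64.8 CPM in WT LP, 11.95, 14.1 and 12.2 in basal cells and 1.27, 3.34 and 1.24 in ML. The populations did not overlap, although LP libraries differed among themselves more than the others. LP exceeded ML by 5.25 (SE 0.63, adjusted p = 4.1e-06), and ML lay below basal cells by 2.72 in size (log2 fold change -2.72, adjusted p = 0.00098). Hey1 was above basal cells in LP by 2.53 (1.90 without LP WT mouse 2). Without that library the LP to ML difference was 4.62, and without ML WT mouse 2 it was 5.88 and the ML to basal difference -3.35. Heyl, a related repressor, held 27.9, 8.34 and 6.13 CPM in LP, 2.13, 1.58 and 2.35 in basal cells and 0.158, 1.00 and 0.770 in ML. LP was above both other populations (2.80 over basal cells and 4.23 over ML, adjusted p = 0.00036 and 4.8e-05; 1.86 and 3.28 without LP WT mouse 1), and the basal to ML difference of -1.42 did not pass (adjusted p = 0.10). The WT LP library with the highest Heyl level, from mouse 1, also had the highest summed level of 10 pericyte markers. This sum was 80.3 CPM against 20.04 and 21.9 in the other LP WT libraries. Across that group Higd1b was at 0 counts and Mcam made up most of the sum, with a mean of 37.4 CPM where the sum averaged 40.8 CPM. Mcam averaged 201 CPM in WT basal cells. The part of these genes in the Heyl level was not tested.

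**Figure D1:**
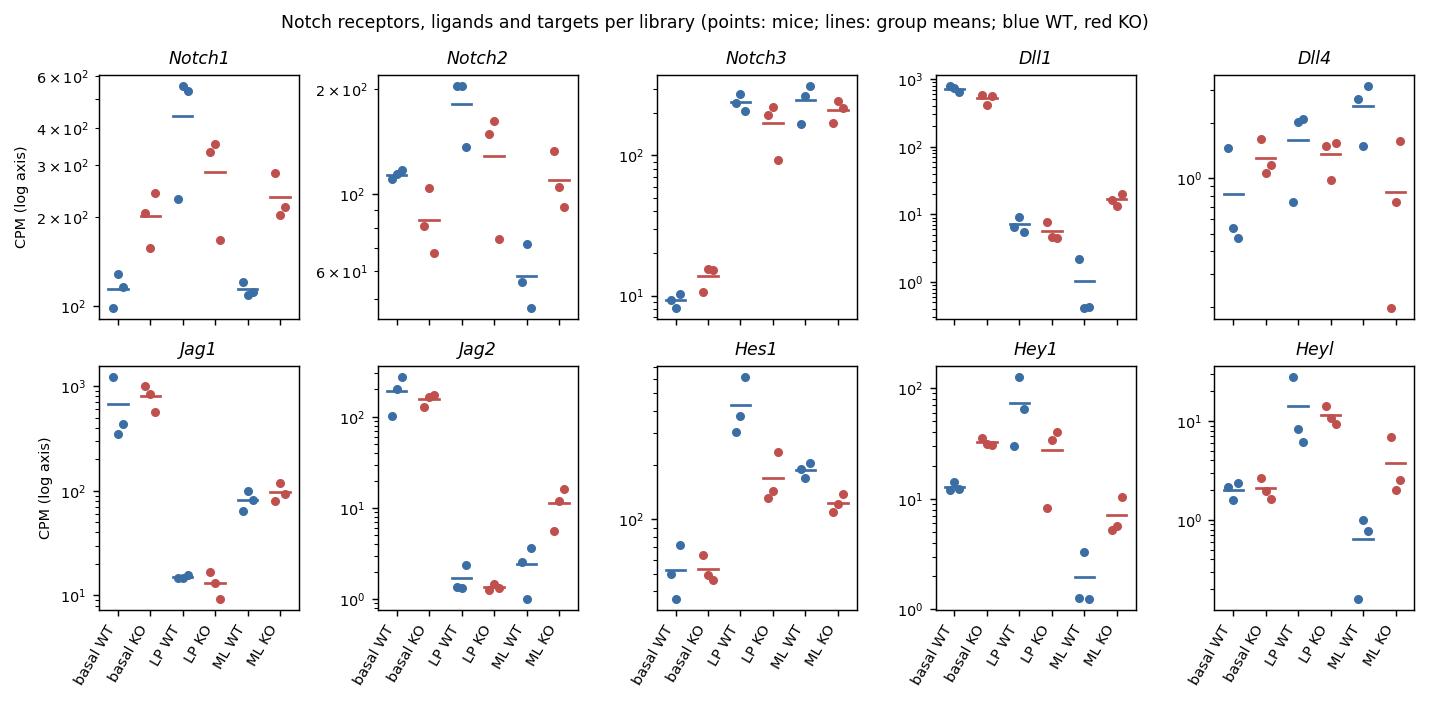
Level of each member in every library, in CPM on a log axis that differs by panel; points are mice (blue WT, red KO) and lines are group means over 3 mice. Dll1, Jag1 and Jag2 are high in basal cells, Notch3 is high in LP and ML, and in ML the KO points of Notch1, Notch2, Dll1, Jag2, Hey1 and Heyl all lie above the WT points.

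The KO libraries kept only part of the WT arrangement by level. Dll1 averaged 520.5 CPM in KO basal cells against 5.65 in KO LP and 16.7 in KO ML, and Notch3 averaged 13.8, 170.5 and 211 CPM in the same order. Dll1 thus stood higher in ML than in LP, the reverse of its WT order. Notch1 had means of 201 CPM in KO basal cells, 284 in LP and 233 in ML, so the LP mean was highest as in WT mice. The KO libraries overlapped, however, and LP KO mouse 3 (168 CPM) lay below every ML KO library (281, 203 and 217 CPM). Hey1 had its highest mean in KO basal cells (32.7 CPM, against 27.4 in LP and 7.10 in ML) rather than in LP. Its basal KO libraries (35.8, 31.6 and 30.7 CPM) overlapped with LP KO (8.21, 34.0 and 40.0 CPM), where mouse 1 was far below the other mice. Notch2 (110.0 CPM in KO ML, 84.1 in KO basal cells) and Heyl (3.797 and 2.08 CPM) had a higher mean in ML than in basal cells, also the reverse of WT. Both overlapped between these KO populations, and for Heyl ML KO mouse 1 (6.84 CPM) was far above mice 2 and 3 (2.02 and 2.53 CPM). Dll4, highest by mean in ML in WT mice, had its lowest mean there in KO mice (0.842 CPM), with overlap between the KO populations. These orders are descriptions, since KO populations were not tested against each other.

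In basal cells no member differed between KO and WT at the adjusted threshold of 0.05. The edgeR test gave 0 of 10 calls against 3.15% of all tested genes, and DESeq2 and limma voom also gave 0. The members with the lowest p were Hey1 and Notch1. Hey1 held 35.8, 31.6 and 30.7 CPM in KO and 11.95, 14.1 and 12.2 in WT, without overlap. Its log2 fold change was 1.35 (SE 0.50, adjusted p = 0.21 by edgeR), and it passed only when the 6 basal libraries were fitted alone (adjusted p = 0.011). Notch1 held 206, 157 and 241 CPM in KO against 98.8, 128 and 116 in WT, also without overlap (0.82, SE 0.31, adjusted p = 0.22). In all, 5 of 10 members did not overlap between genotypes (Hey1, Notch1 and Notch3 higher, Notch2 and Dll1 lower in KO), while 17.6% of all tested genes did not overlap (10.8% higher and 6.82% lower). Dll1, the dominant basal ligand, was at 581, 408 and 572 CPM in KO (-0.48, 95% interval -1.11 to 0.15), and Jag1, Jag2 and Hes1 overlapped between genotypes, with differences of 0.27, -0.30 and 0.01.

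In LP a single member, Hes1, fell in KO. It held 132, 143 and 235 CPM in KO mice against 305, 374 and 614 in WT mice, so that the highest KO library was below the lowest WT library. The log2 fold change was -1.34 (SE 0.29, adjusted p = 0.0047), a level 2.53-fold lower. It was the 1 of 10 members called, where 14.9% of all tested genes were called (6.63% lower), and the 1 of 10 without overlap, where 31.0% of all genes had none (13.4% lower). The call was lost when only the 6 LP libraries were fitted (adjusted p = 0.056). The LP KO libraries also had a lower summed level of 10 ML markers, 276 to 494 CPM against 656 to 1003 in LP WT, with 4 of the 10 lower at the threshold (Esr1, Prlr, Foxa1 and Cited1) and none at 0 counts; their part in the Hes1 result was not tested.

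Hey1 in LP held 8.21, 34.0 and 40.0 CPM in KO against 29.9, 126 and 64.8 in WT. The groups overlapped, and the log2 fold change of -1.42 (SE 0.49) had adjusted p = 0.056. It passed with DESeq2 (0.032), limma voom (0.048), the replicate number as a block (0.027) and without LP WT mouse 1 (0.020). Over all 14 alternatives the change was -1.79 to -0.79, with adjusted p up to 0.34. Notch1 in LP was 332, 352 and 168 CPM in KO and 230.0, 556 and 535 in WT, a difference of -0.63 with adjusted p = 0.16. It passed only without LP WT mouse 1 (-0.94, adjusted p = 0.035). Over the 14 alternatives the Notch1 difference was -0.94 to -0.36, with adjusted p up to 0.49. All 10 members had a negative log2 fold change in LP, with a median of -0.44 against 0.02 over all tested genes. For the ligands Dll1, Jag1 and Jag2, which are scarce in LP, the intervals were -1.04 to 0.40, -1.0 to 0.58 and -1.47 to 0.67.

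In ML 6 of the 10 members rose in KO and none fell, where 15.2% of all tested genes were called (11.8% higher). The 6 were Dll1, Jag2, Heyl, Hey1, Notch1 and Notch2. The largest rise was that of Dll1, from 2.22, 0.417 and 0.428 CPM in WT to 16.6, 13.1 and 20.3 CPM in KO. This is a log2 fold change of 4.45 (SE 0.45, adjusted p = 7.3e-07), or 21.8-fold, with no overlap, and it was 5.28 without ML WT mouse 1, whose level was the highest of the WT libraries. Jag2 went from 2.53, 1.00 and 3.68 CPM to 5.55, 12.1 and 16.0 CPM, 4.53-fold higher (2.18, SE 0.43, adjusted p = 0.0014; 2.84 without ML WT mouse 3). The Dll1 and Jag2 calls held under all 14 alternatives tried for the ML comparison, with ranges of 3.91 to 5.28 and 1.82 to 2.84. Jag1, the most abundant ligand per kilobase in WT ML, held 80.7, 118 and 92.3 CPM in KO and overlapped with WT (0.24, 95% interval -0.51 to 0.99). Dll4 was 0.198, 0.745 and 1.58 CPM in KO, with a difference of -1.41 and adjusted p = 0.074. It passed, as lower in KO, only without ML KO mouse 3 (adjusted p = 0.026 by edgeR).

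Among the receptors, Notch1 rose from 121, 109 and 112 CPM in WT ML to 281, 203 and 217 in KO ML (1.04, SE 0.31, adjusted p = 0.026). Notch2 rose from 55.9, 71.8 and 47.1 CPM to 133, 105 and 91.8 CPM (0.92, SE 0.27, adjusted p = 0.028). Neither receptor overlapped between genotypes, whereas Notch3, the receptor most abundant in ML, overlapped at 170.1, 246 and 217 CPM in KO (-0.24, 95% interval -0.84 to 0.35). The target genes moved apart from each other. Hey1 rose from 1.27, 3.34 and 1.24 CPM to 5.26, 5.71 and 10.3 CPM (1.89, SE 0.61, adjusted p = 0.043), and Heyl from 0.158, 1.00 and 0.770 CPM to 6.84, 2.02 and 2.53 CPM (2.23, SE 0.69, adjusted p = 0.032). Hes1 was at 109.6, 121 and 138 CPM in KO, below every WT ML library (189, 169.8 and 204), but the difference of -0.61 had adjusted p = 0.16. It passed, as lower in KO, only when the 6 ML libraries were fitted alone (adjusted p = 0.033 by edgeR). In all, 7 of 10 members did not overlap between genotypes in ML, 6 higher and 1 lower in KO, where 37.8% of all genes did not (21.6% higher and 16.2% lower).

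The smaller ML calls depended on single libraries. Without ML KO mouse 1, the adjusted p was 0.11 for Notch1, 0.13 for Notch2, 0.057 for Hey1 and 0.15 for Heyl, so that 2 of 10 members, Dll1 and Jag2, were called. Leaving out ML WT mouse 1 or mouse 3 likewise left 2 calls. Hey1 lost its call under 8 of 14 alternatives and Heyl under 7 of 14, including limma voom (0.16 and 0.073) and thinning to equal depth (0.16 and 0.081). The Hey1 change was 2.52 without ML WT mouse 2, and that of Heyl was 1.63 without ML KO mouse 1.

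**Figure D2:**
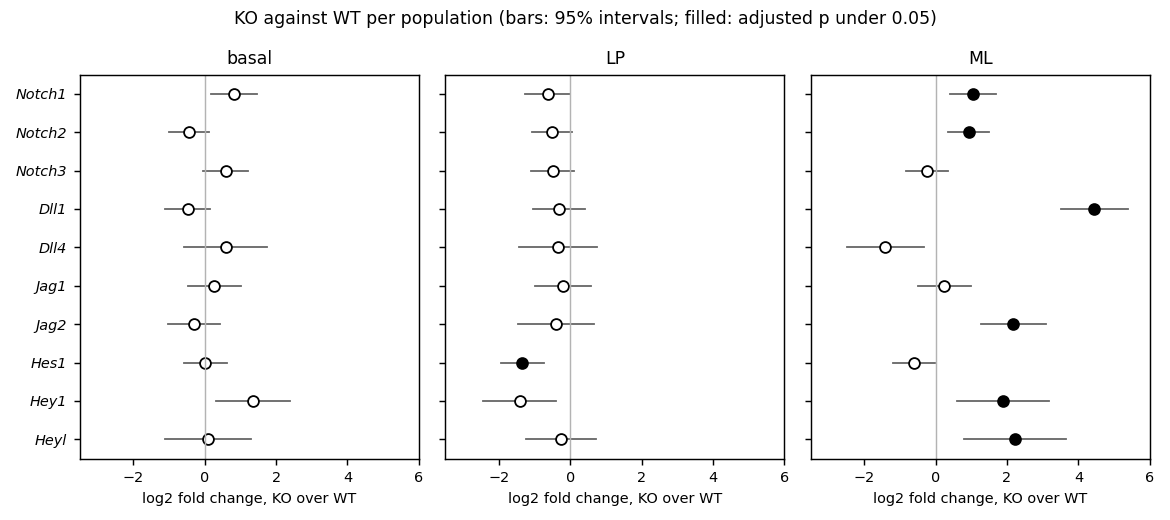
Log2 fold change of KO over WT for each member in basal cells, LP and ML, with 95% intervals (3 mice per genotype); filled points passed an adjusted p of 0.05. In basal cells 0 points are filled, in LP Hes1 alone is filled on the negative side, and in ML 6 points are filled on the positive side with Dll1 farthest out at 4.45.

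Markers of basal cells and of LP moved with the ML result. The summed level of 10 basal markers was 22.7 to 30.1 CPM in ML WT and 718 to 882 CPM in ML KO, against 16094 to 21308 CPM in basal KO, with 8 of 10 higher in KO at the threshold and none at 0 counts in ML. Krt5 averaged 2.64 CPM in ML WT and 157 CPM in ML KO, and Krt14 averaged 3.84 and 262 CPM. The summed level of 10 LP markers was 159 to 206 CPM in ML WT and 597 to 1949 CPM in ML KO, highest in mouse 1, with 9 of 10 higher and none at 0 counts. The 10 ML markers summed to 7495 to 10421 CPM in WT and 1776 to 4857 CPM in KO, lowest in mouse 1, with 4 of 10 lower. The 10 pericyte markers summed to 11.5 to 15.5 CPM in ML WT, where Kcnj8 and Ndufa4l2 were at 0 counts, and to 24.3 to 40.5 CPM in ML KO, highest in mouse 1 as Heyl was, with 3 of the 8 tested higher (Abcc9, Mcam and Cox4i2). Mcam led this sum, with means of 10.9 CPM in ML WT and 29.3 in ML KO, and it averaged 201 CPM in WT basal cells.

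The member levels can be set beside these markers on a common scale, the ML mean as a percent of the mean in another population of the same genotype. Dll1 in ML stood at 3.20% of its basal level in KO and 0.141% in WT, and Jag2 at 7.19% and 1.25%. The 10 basal markers stood at 0.345% to 12.4% in KO (median 2.86%) and 0.0350% to 0.591% in WT (median 0.119%). Both ligands therefore lay within the range of the basal markers in KO, and Dll1 but not Jag2 did so in WT. Of the ligands that did not pass between genotypes, Jag1 stood at 12.1% in KO and 12.3% in WT, and the scarce Dll4 moved the other way, at 65.4% in KO and 299% in WT.

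On the scale of LP, Notch1 in ML stood at 82.2% in KO and 25.9% in WT, Notch2 at 85.8% and 32.0%, Hey1 at 25.9% and 2.64%, and Heyl at 33.1% and 4.56%. The 10 LP markers stood at 5.96% to 123% in KO (median 28.1%) and 1.39% to 23.9% in WT (median 2.65%). Notch1 and Notch2 thus lay above the marker range in WT and within it in KO, and Hey1 and Heyl lay within it in both. The LP means that set this scale were lower in KO for each of these members. They were 284 CPM against 440 in WT for Notch1, 128 against 182 for Notch2, 27.4 against 73.7 for Hey1 and 11.5 against 14.1 for Heyl. Hes1 stood at 72.2% and 43.6%, and its KO means were below the WT means in both LP and ML. The ML KO library with the highest LP marker sum, mouse 1, also had the highest Notch1, Notch2 and Heyl levels of its group but the lowest Hey1 level, while Dll1 and Jag2 were highest in mouse 3, which had the lowest basal marker sum of the 3. The part of these markers in the member results was not tested.

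**Figure D3:**
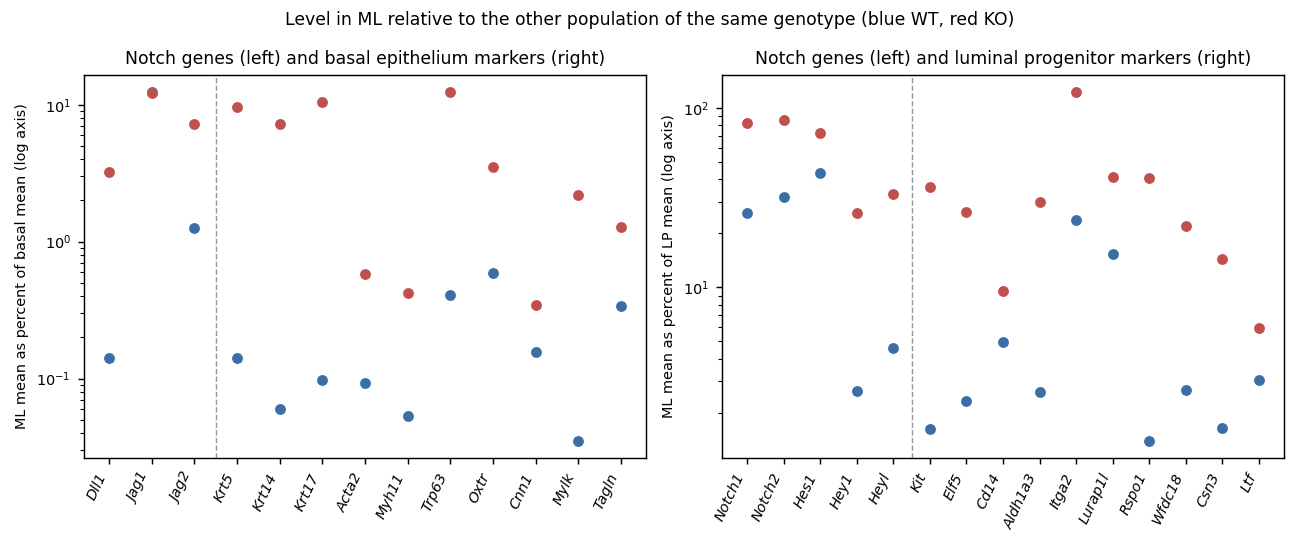
Mean level in ML as a percent of the mean in basal cells (left panel) or in LP (right panel) of the same genotype, on log axes, for members left of the dashed line and marker genes right of it; blue is WT, red is KO. Dll1 and Jag2 shift upward in KO with the basal markers while Jag1 stays near 12%. Notch1, Notch2, Hes1, Hey1 and Heyl shift upward with the LP markers, and their LP means were lower in KO.

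Whether the genotype effect itself differed between populations was tested with interaction terms, which share libraries with the comparisons above. Between LP and ML it differed for 5 of 10 members, where 6.37% of all tested genes were called (5.15% in the negative direction that all 5 took). The effect in LP minus that in ML was -4.77 for Dll1 (SE 0.57, adjusted p = 2.2e-05), -3.31 for Hey1 (SE 0.78, adjusted p = 0.013), -2.58 for Jag2 (adjusted p = 0.025), -1.67 for Notch1 (adjusted p = 0.023) and -1.42 for Notch2 (adjusted p = 0.030). All 5 had a lower KO mean than WT mean in LP and a higher one in ML. The 5 calls went down to 2 without LP KO mouse 3 or ML WT mouse 3, and to 3 without LP WT mouse 2, ML KO mouse 1 or ML WT mouse 2. The differences became -5.60 for Dll1 without ML WT mouse 1, -3.23 for Jag2 without ML WT mouse 3, and -2.69 and -3.95 for Hey1 without LP WT mouse 2 and ML WT mouse 2.

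Between ML and basal cells the genotype effect differed for 3 of 10 members, where 5.53% of all genes were called (4.50% in the positive direction that all 3 took). These were Dll1 (4.93, SE 0.55, adjusted p = 8.5e-06), Jag2 (2.48, SE 0.56, adjusted p = 0.0088) and Notch2 (1.35, SE 0.39, adjusted p = 0.042). The Dll1 and Jag2 calls held under every alternative for this comparison, and Notch2 lost its call under 10 of 18. The Dll1 value was 5.76 without ML WT mouse 1, and the Jag2 value 3.14 without ML WT mouse 3.

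Between LP and basal cells, 0 of 10 members passed with edgeR, where 1.09% of all genes did. DESeq2 called 3 members (Hey1, Notch1 and Hes1), but it also called 559 of all genes where edgeR called 180. The largest difference was that of Hey1, with an effect in LP minus that in basal cells of -2.78 (SE 0.70, adjusted p = 0.063 by edgeR). The mouse as a block uses the fact that the 3 populations came from the same animals. With it 2 members passed, Hey1 (adjusted p = 0.012) and Hes1 (adjusted p = 0.033), and 491 of all genes were called. Without LP WT mouse 1, Hey1 and Notch1 passed (adjusted p = 0.020 and 0.023).

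The rest of the pathway was followed in 8 lists with 62 genes, of which 57 were tested. In basal cells 1 of 57 rose in KO and 0 fell, where 3.15% of all genes were called, with a median log2 fold change of -0.05 (all genes -0.02). In LP 5 rose and 6 fell, where 14.9% of all genes were called (median -0.15, all genes 0.02). In ML 9 rose and 3 fell, where 15.2% of all genes were called (median 0.01, all genes 0.02). Neurl1b, which encodes a ubiquitin ligase acting on Notch ligands, was the gene called in all 3 populations, by 2.70, 1.26 and 2.08 in basal cells, LP and ML (adjusted p = 0.027, 0.046 and 0.015). Its levels were low, at 0.919, 1.30 and 3.10 CPM in KO basal cells against 0.260, 0.108 and 0.565 in WT.

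In LP, of 12 corepressors 2 rose and 2 fell: Hdac1, a histone deacetylase, rose by 1.19 (38.9, 31.3 and 41.0 CPM in KO against 13.4, 15.9 and 19.0 in WT), Ctbp1 rose by 0.58, and Ncor1, a nuclear receptor corepressor, and Ctbp2 fell by 1.31 and 1.01 on the log2 scale. The adjusted p of Hdac1 was 0.0023 and that of Ncor1 was 0.0017. Of 9 genes of receptor turnover, Numb, an inhibitor of Notch receptors, fell by 1.04 (65.2, 54.3 and 26.1 CPM in KO against 137, 92.6 and 70.7 in WT, adjusted p = 0.016), Itch, a ubiquitin ligase, fell by 0.72, and Dtx4 rose by 1.23. Maml1, a Mastermind-like coactivator, fell by 0.77, and of 10 processing genes Furin, the convertase that cleaves the receptor precursor, fell by 1.02 while Aph1a, a gamma-secretase subunit, rose by 0.65. None of the 5 glycosyltransferases, which modify receptor ligand binding, passed (median 0.59).

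Among the genes that rose in ML, Maml2, a coactivator, went from 5.07, 6.51 and 5.52 CPM in WT to 61.4, 25.6 and 32.6 in KO (2.78, SE 0.33, adjusted p = 5.9e-06). Tle4, a Groucho-family corepressor, went from 3.01, 6.34 and 3.25 CPM to 34.3, 15.7 and 18.7 (2.41, SE 0.35, adjusted p = 6.1e-05), and Tle1 rose by 0.82. Both Maml2 and Tle4 were without overlap and highest in mouse 1. Among the 9 turnover genes, Fbxw7, part of the ligase that degrades the intracellular domain, rose by 1.27 (adjusted p = 0.0026) and Nrarp, a feedback inhibitor and Notch target, by 1.57 (adjusted p = 0.016).

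Several ML rises rest on very few WT counts. Dtx1, a Deltex ubiquitin ligase, had 0, 1 and 2 counts in ML WT against 18, 100 and 63 in ML KO (1.79, 2.76 and 2.49 CPM, adjusted p = 2.4e-05). Hey2 had 0, 0 and 7 counts against 20, 64 and 36 (adjusted p = 0.011), so this Hey gene was called higher along with Hey1 and Heyl. The noncanonical ligand Dlk2 had 0 counts in all 3 WT libraries and 0, 13 and 11 in KO (adjusted p = 0.042). The 3 genes that fell were Epn2, an endocytic adaptor, by 1.12, Aph1c by 1.29 and Neurl1a by 1.40. The interaction between ML and basal cells was called for 4 of 57 (Maml2, Tle4, Fbxw7 and Dtx1; 5.53% of all genes), and that between LP and ML for 6 (these 4 with Nrarp and Hey2; 6.37% of all genes).

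**Figure D4:**
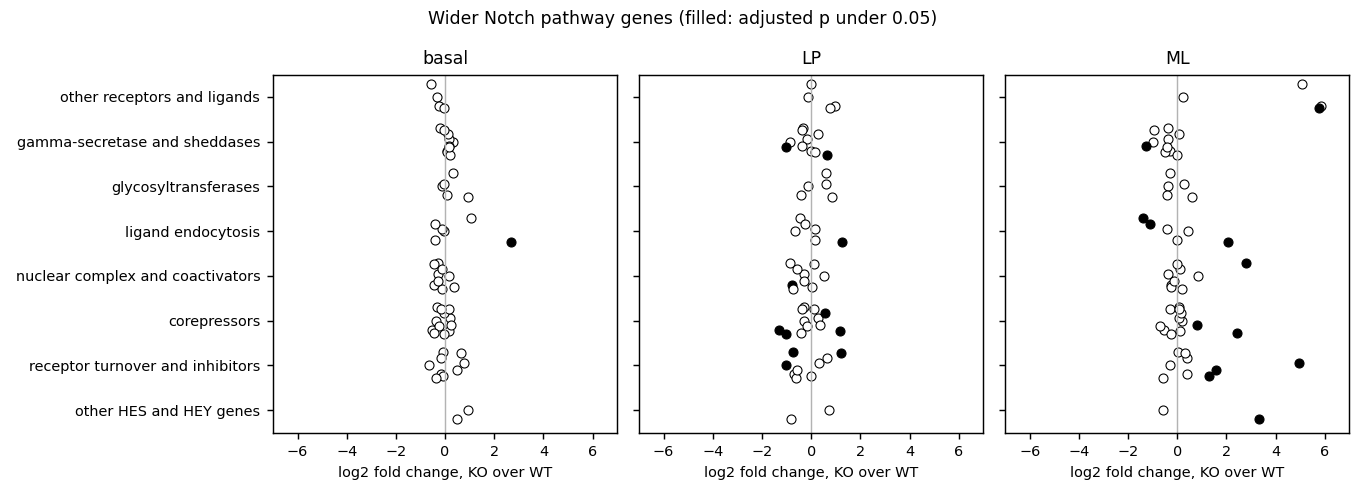
Log2 fold change of KO over WT for the 57 tested genes of 8 pathway lists, 1 row per list and 1 panel per population; filled points passed an adjusted p of 0.05. The basal panel has 1 filled point, the LP panel has 5 to the right and 6 to the left, and the ML panel has 9 to the right and 3 to the left.

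Between WT populations, 7 of the 10 processing genes were higher in ML than in basal cells and none lower, where 25.7% of all genes were called higher. Adam10, the sheddase that makes the first cut after ligand binding, held 905, 952 and 629 CPM in WT ML against 160, 155 and 119 in LP and 57.8, 63.1 and 82.6 in basal cells, with a log2 fold change of 3.61 (SE 0.37, adjusted p = 9.1e-08) from basal cells to ML. In ML KO it held 232, 481 and 553 CPM, all below the WT libraries, with -0.97 and adjusted p = 0.054. Lfng, the Fringe enzyme that sets the preference of receptors for Delta-like ligands, was lower in LP than in basal cells (-2.61, adjusted p = 9.4e-05) and than in ML (-2.75, adjusted p = 9.5e-05), with 1.73, 2.22 and 1.59 CPM in WT LP. Numbl, a relative of Numb, followed the basal ligands with 143, 82.6 and 76.1 CPM in basal cells and 23.7, 14.2 and 7.42 in LP (-2.76, adjusted p = 3.9e-06). Maml2 and Tle4 were lower in ML, at -4.33 and -3.99 against basal cells.

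The genes whose levels were most like a member's over the 18 libraries were found by Pearson's r of log2 CPM among genes with a mean of at least 2 CPM. The closest pair was Notch3 with Clcn3 (r = 0.991), followed by Dll1 with Niban1 (0.989) and Jag2 with Tenm3 and Sparc (0.979 each). Jag1 was nearest to Kif1a (0.978), Hey1 to Pinc (0.948), Heyl to Fyb2 (0.948), Hes1 to Spice1 (0.939), Notch1 to Nav3 (0.916) and Notch2 to Naaladl2 (0.902). Dll4 had no close match, its highest r being 0.727 with Tsen15. Among the members themselves Dll1 and Jag2 were most alike (0.92) and Dll1 and Notch3 most unlike (-0.93). The libraries share 6 groups, so these values mostly describe how genes differ between populations.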

How the data were processed

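The authors deposited raw integer counts for each gene, from featureCounts and the mm10 build per the submitters' processing notes. For the aligner, annotation and strand option, nothing is given in the sources used here. RNA was extracted with miRNeasy micro kits and libraries made with TruSeq RNA v2, per the labels. Symbols were matched through RefSeq tables (25275 of 27179 identifiers). edgeR 4.0.16 (R 4.3.3) quasi-likelihood fits with robust dispersions used all 18 libraries, filterByExpr, TMM and 1 mean per group, and p-values were adjusted by Benjamini-Hochberg over 16466 genes with a threshold of 0.05. CPM and RPKM were computed from the counts, with the deposited gene length. The fitting script was tested on simulated data. Basal, LP and ML libraries with the same number within a genotype come from the same mouse, per the sample descriptions; deviations from group means correlated at 0.0949 to 0.334 over 18 such pairs. Replicates of a group differed by more than counting noise (chi-square per degree of freedom from 23.9). Separate mice were used as replicates, per the labels.

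The members and gene lists were chosen with earlier results of these data known. Named genes were the members, Trp53, Brca2, per pathway list at most 4 called genes of lowest p for each KO comparison and 2 for each WT comparison, and the 2 genes most like each member; markers, Adam10 in KO, Dll4's vascular markers and genes given for context were named after their values were seen. Alternatives were RLE scaling, no filter on low counts, DESeq2 1.42.0, limma 3.58.1 voom, separate fits, thinning to the lowest total, blocks and leaving out each library, and, chosen after seeing the data, edgeR's legacy dispersions.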

Additional observations from a re-analysis of the deposited data

Results flagged for a closer look

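The following results were singled out because the KO against WT effect of a member differed between populations by the interaction test (edgeR, adjusted over all genes). The effect in ML minus that in basal cells was 4.93 for Dll1 (adjusted p = 8.5e-06), 2.48 for Jag2 (0.0088) and 1.35 for Notch2 (0.042), each on the log2 scale with 3 mice per group. The effect in LP minus that in ML was -4.77 for Dll1 (adjusted p = 2.2e-05), -3.31 for Hey1 (0.013), -2.58 for Jag2 (0.025), -1.67 for Notch1 (0.023) and -1.42 for Notch2 (0.030). In each of them the ML KO libraries lay above the ML WT libraries, 3 of 3 against 3 of 3, and the basal and LP marker sums given in the report also differed between those libraries.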

How the results depend on the processing

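No call of a member reversed its direction under any alternative tried. The number of members called moved as follows. In basal cells it was 1 in place of 0 when the 6 libraries were fitted alone. In LP it was 2 in place of 1 with DESeq2, with limma voom and with the replicate number as a block, 0 when the 6 libraries were fitted alone, and 1 to 3 when 1 library was left out. In ML it was 2 to 6 when 1 library was left out. The ML count stayed at 6 when the 6 libraries were fitted alone, with Heyl lost and Hes1 gained as lower in KO. Without ML KO mouse 3 it also stayed at 6, with Hey1 lost and Dll4 gained as lower in KO. For the genotype effect in LP against basal cells it was 3 with DESeq2, 2 with the mouse as a block and 0 to 2 when 1 library was left out. For LP against ML it was 2 to 5 when 1 library was left out. Among the smaller shifts, ML had 4 calls in place of 6 with limma voom and after thinning, and 5 without the filter on low counts. The ML against basal effect had 2 in place of 3 after thinning, and 2 to 3 when 1 library was left out. LP against ML had 6 in place of 5 with DESeq2 and 4 after thinning.

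Over all genes, the KO against WT calls in basal cells were 519, with 255 after thinning and 260 to 505 leaving out 1 library; in LP 2456, with 788 in the separate fit and 1012 to 2558 leaving out 1 library; in ML 2511, with 1622 to 2351 leaving out 1 library. The genotype effect in LP against basal cells was called for 180 genes, 559 with DESeq2, 82 after thinning, 491 with the mouse block and 91 to 246 leaving out 1 library. For ML against basal cells the calls were 910, 1437 with DESeq2 and 1480 with the mouse block, and for LP against ML 1049, 1727 and 1814. The cause of these shifts was not tested.

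The numbers of KO and WT mice are not shared animals: deviations of same-numbered libraries across genotypes correlated at -0.0977 to 0.258, over 0.1 in 4 of 9. With that number as a block, the KO against WT calls among members were 0 in basal cells, 2 in LP (Hes1 and Hey1, adjusted p = 0.027 for Hey1) and 6 in ML. The mouse block changed no other member call than those of Notch2 (LP against basal cells in WT), Hey1 and Hes1 given in the report. edgeR's legacy dispersions, chosen after seeing the data, moved no count of member calls by over 1.5 times. After thinning to the lowest total, the ML calls of Hey1 and Heyl and the WT call of Dll4 in ML against basal cells were lost. The interaction calls of Jag2 in LP against ML (adjusted p = 0.066 by edgeR) and of Notch2 in ML against basal cells (0.083) were lost as well. Notch2 in WT LP against WT basal cells was gained (0.043).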

Other observations

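The library of WT mouse 1 stood apart from the other LP WT libraries in different directions for different genes of the Notch pathway. It had the lowest Notch1 (230.0 CPM against 556 and 535) and Hey1 (29.9 against 126 and 64.8) of its group, and the highest Heyl (27.9 against 8.34 and 6.13) and Nrarp (77.2 against 25.2 and 21.9). Nrarp, a feedback inhibitor, was nevertheless higher in WT LP than in WT basal cells by 2.09 (adjusted p = 0.00038, edgeR). The noncanonical ligand Dlk1 had 115, 78 and 22 counts in WT basal cells and 0 counts in all 6 LP libraries, while in ML it had 0 counts in the 3 WT libraries and 0, 11 and 4 in the KO libraries.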
